A study of Mus musculus with 6 samples.

Results

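The pancreatic digestive enzymes examined here are 9 mouse genes, Cela1, Prss1, Try4, Cpa1, Cpb1, Pnlip, Pnliprp1, Cel and Ctrb1, chosen by name from the non-control probes of 6 single-colour Agilent arrays. Probes were matched to them by the present or an older symbol in the array design. Of the 9 genes, 7 were measured under their own name, by 9 probes, out of 21381 genes tested in the series. Prss1 and Try4 were not analysed under their own names, and trypsin is described below through a shared probe and its relatives. The arrays compared epithelial cells sorted from the thymic medulla (ThymusEC) with epithelial cells sorted from the thyroid (ThyroidEC), both of the C57BL/6 strain, with no treatment named in the labels and the age of the mice not given in the sources used here. Thymic cells were sorted as Epcam+ UEA1+ CD45- Fluorogold- and thyroid cells as Epcam+ CD45- Fluorogold-, where Epcam is an epithelial adhesion protein, UEA1 a lectin that binds medullary thymic epithelium, CD45 the common surface protein of blood cells and Fluorogold a stain for dead cells. Each group held 3 arrays. A thymic sample was a pool of 6 thymi for replicates 1 and 2 and of 2 thymi for replicate 3, while every thyroid sample came from 20 thyroids.

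The acinar cells of the pancreas make these enzymes in very large amounts and release them into the gut. Trypsin, chymotrypsin, elastase and the carboxypeptidases cut dietary protein, and the lipases cut fat. The proteases are stored as inactive precursors, which trypsin activates after it has itself been activated by enterokinase. Medullary thymic epithelial cells are known to transcribe many genes of other tissues, in part through the regulator Aire, and display the products to developing T cells.

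Markers of both labels were where the labels place them. All 8 medullary markers were higher in the thymic samples, among them Aire by a measured 4322-fold and Fezf2 by at least 852-fold. Aire was above background on 2 of the 3 thyroid arrays, so its fold rests in part on a value at background. All 7 follicular markers were higher in the thyroid samples, among them thyroglobulin (Tg, log2 difference -10.78). Markers of other cells also differed. Of 10 thymocyte markers 9 were higher in the thymic samples, as were 7 of 8 B cell markers and 10 of 10 myeloid and dendritic markers, while all 8 endothelial markers were higher in the thyroid samples; of all genes tested, 39.2% were called higher and 30.6% lower in the thymic samples. The blood cell counts depend on the scaling: with normexp correction 5 thymocyte, 6 B cell and 9 myeloid markers were called higher, and with median centring 6, 6 and 8. With median centring and with the deposited table, 1 B cell marker, Vpreb3, was called lower in the thymic samples. Cd3e, a subunit of the T cell receptor complex, changed sign with median centring, the deposited table and quantile normalization, and Cd4 and Cd79a with quantile normalization. Summed over the thymocyte list, signal divided by each array's 75th percentile came to 1.93, 2.18 and 3.72 in thymic replicates 1 to 3, against 0.641 to 0.780 in the thyroid replicates. The share of probes marked as well above background was 78.4% to 81.0% per thymic array and 65.3% to 72.7% per thyroid array. No spot was saturated. The B cell sums were 5.07 to 6.91 in the thymic samples, against 3.33 to 4.00 in the thyroid samples, the myeloid sums 96.7 to 104 against 1.73 to 3.24 (4.58 to 5.18 against 1.18 to 2.00 without Lyz2, which makes up nearly all of the thymic sum), and the endothelial sums 2.88 to 2.95 against 316 to 463. Every marker of these 4 lists was above background on all thymic arrays. On the thyroid arrays, 4 thymocyte, 4 B cell and 1 myeloid marker were above background on none. Ptprc, which encodes CD45, was 16.2-fold higher in the thymic samples. What part such cells have in the enzyme differences was not tested.

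Levels below are log2 of the processed signal relative to the 75th percentile of the same array. They can be compared between arrays for 1 probe, but not between probes. Above background means that the scanner software marked the probe as well above background. Differences are thymic minus thyroid, tested with limma over all 21381 genes with Benjamini-Hochberg adjustment at a threshold of 0.05, and a gene counts as called if it passed. In these bulk samples, fewer cells with a transcript and less transcript per cell cannot be told apart.

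Chymotrypsinogen and bile salt-stimulated lipase were the members with signal above background on all 6 arrays, and both were moderately higher in the thymic samples. Ctrb1 encodes chymotrypsinogen B1, the precursor of a protease that cuts after aromatic residues. Its probe (chromosome 8, 114575271 to 114575330, minus strand, mm8) read 0.36, 0.37 and 0.55 on the thymic arrays, against -1.20, -0.43 and -0.88 on the thyroid arrays. The thymic values all lay above the thyroid ones and were closer together. The difference was 1.26 (SE 0.203, adjusted p = 0.00132), or 2.40-fold.

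Cel encodes the bile salt-stimulated lipase, which cleaves cholesterol esters and other lipids and is also made in the lactating mammary gland. Its probe (chromosome 2, 28378098 to 28378157, minus strand, mm8) read -0.67, -0.76 and -0.65 on the thymic arrays, against -2.22, -2.03 and -2.03 on the thyroid arrays. Within each group the 3 arrays nearly coincided, and the groups were separate. The difference was 1.40 (SE 0.109, adjusted p = 3.65e-05), or 2.64-fold. With each array centred on its median, which lowered the median difference of all genes by 0.52 (log2), the difference was 0.88 for Cel and 0.74 for Ctrb1, and both were still called.

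Cela1, listed on the array as Ela1, encodes elastase 1, a protease that cuts after small residues. It was measured by 2 probes on chromosome 15, minus strand, one designed on the RefSeq transcript and the other on a cDNA clone. Both sequences are shown because their values bear on each other, with the transcript probe at 100512617 to 100512676 and the clone probe at 100513158 to 100513217 (mm8).
Cela1 transcript probe: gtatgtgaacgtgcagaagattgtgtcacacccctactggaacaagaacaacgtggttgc
Cela1 clone probe: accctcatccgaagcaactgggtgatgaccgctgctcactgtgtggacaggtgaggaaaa
The transcript probe read -4.25, -4.33 and -4.31 on the thymic arrays, against -5.76, -6.46 and -6.57 on the thyroid arrays. The clone probe read -4.70, -4.69 and -5.03 on the thymic arrays, against -5.57, -6.32 and -7.15 on the thyroid arrays. On both probes the groups were separate, thyroid replicate 1 was the brightest thyroid array, and it was the only thyroid array on which either probe was above background. The difference on the transcript probe, which represents the gene, was 1.96 (SE 0.219, adjusted p = 2.16e-04), or 3.90-fold, and that on the clone probe was 1.54, or 2.91-fold. With the dim thyroid values raised to the background limit, the transcript probe gave 3.06-fold (adjusted p = 0.00180).

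**Figure D1:**
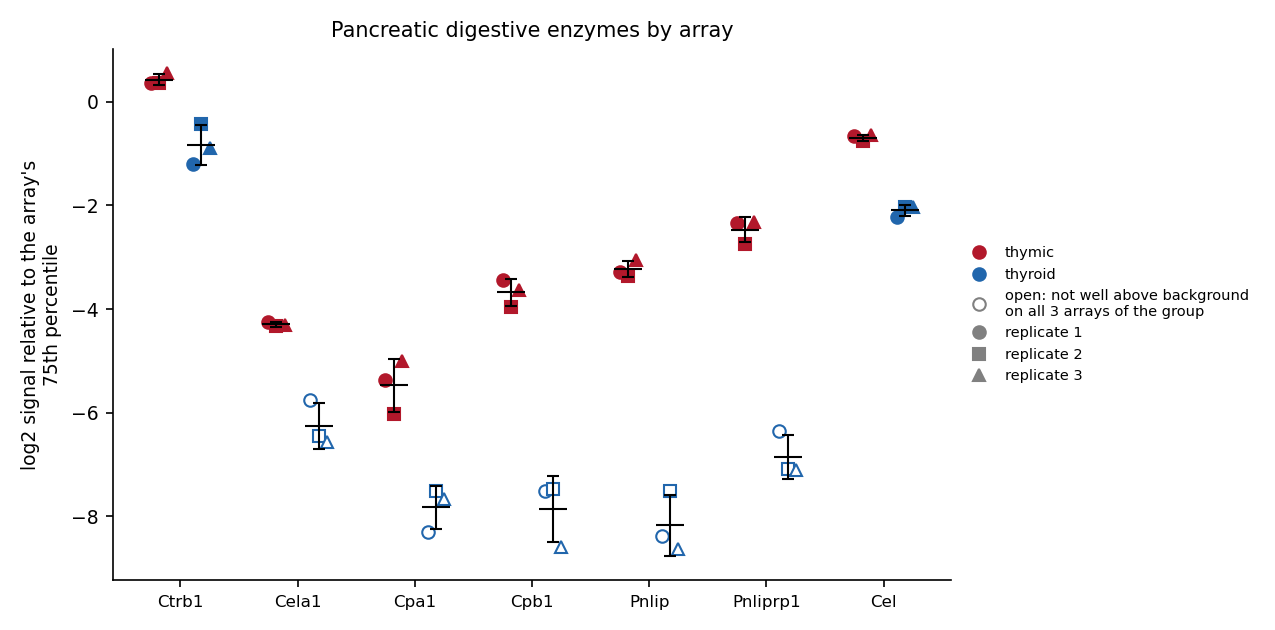
Log2 signal of the 7 measured enzymes relative to each array's 75th percentile (vertical axis), with thymic arrays in red to the left and thyroid arrays in blue to the right of each gene. Symbols are the 3 replicates, lines and bars the mean ± SD, and open symbols mark a group in which the probe was not above background on all 3 arrays. Ctrb1 and Cel are filled in both groups, and the other 5 genes are open in the thyroid group.

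Trypsin could be followed only through probes that are shared or belong to its relatives. The mouse trypsinogens sit together in a gene cluster on chromosome 6 and are close in sequence. One probe, named Prss3 on the array, lists RefSeq transcripts of 4 genes, Gm5771, Prss1, Prss3 and Try10, so that its signal cannot be assigned to any one of them. A second Prss3 probe lists no RefSeq transcript of the other 3. Both are printed because their listed transcripts and their values differ; the shared probe lies at 41306448 to 41306507 and the other at 41303489 to 41303548 on the minus strand of chromosome 6 (mm8).
Shared trypsinogen probe: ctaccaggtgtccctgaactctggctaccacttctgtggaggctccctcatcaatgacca
Prss3 probe: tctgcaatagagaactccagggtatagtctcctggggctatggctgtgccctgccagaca
The shared probe read -1.01, -0.86 and -1.21 on the thymic arrays, against -2.63, -2.80 and -2.73 on the thyroid arrays. It was above background on all 6 arrays and 3.23-fold higher in the thymic samples, with the groups separate by 1.43 (log2). The Prss3 probe read 0.48, 0.48 and 0.64 on the thymic arrays, against -4.49, -4.03 and -3.97 on the thyroid arrays. Its difference was 4.70 (SE 0.163, adjusted p = 1.23e-06), or 25.9-fold. Which of the 4 genes gave the thyroid signal on the shared probe was not tested, and cross-hybridisation among trypsinogens can affect either probe.

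The other trypsinogens were also higher in the thymic samples. Prss2, anionic trypsinogen, read -0.77, -0.84 and -0.90 on the thymic arrays, against -8.30, -6.11 and -7.39 on the thyroid arrays, where it was above background on none, and was at least 37.5-fold higher (adjusted p = 3.92e-05). An "at least" fold sets the thymic mean against the lowest signal above background on each thyroid array, or the probe's own signal where that is higher. Try5 was 12.4-fold higher and above background on all 6 arrays (adjusted p = 6.95e-07). The trypsinogen 2210010C04Rik, with both probes above background on the 3 thymic arrays and on no thyroid array, was at least 5.09-fold higher by the brighter probe (adjusted p = 1.35e-04) and at least 3.72-fold higher by the dimmer one.

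**Figure D2:**
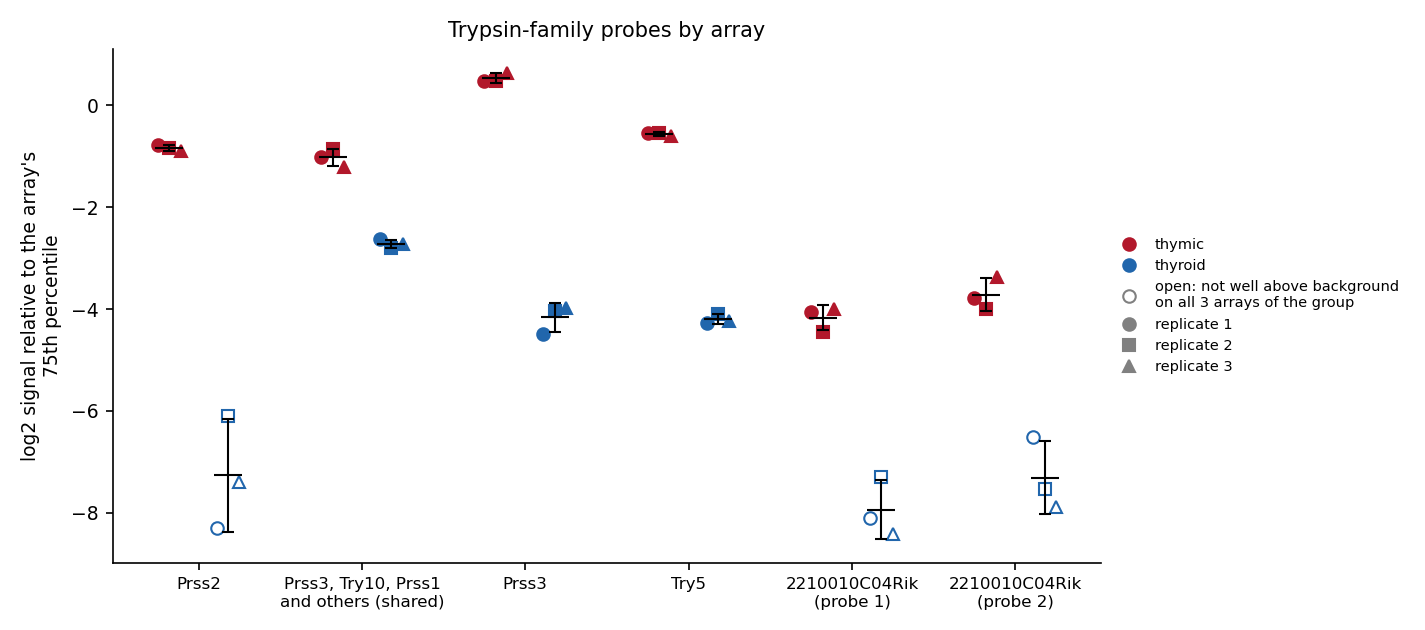
Log2 signal of 6 trypsinogen probes relative to each array's 75th percentile, thymic arrays in red to the left and thyroid arrays in blue to the right, with symbols, bars and open marks for the replicates, the mean ± SD and probes not above background on all 3 arrays of the group. The shared probe and the Prss3 and Try5 probes are above background on all thyroid arrays, and Prss2 and 2210010C04Rik on none.

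The 2 carboxypeptidases were above background on the 3 thymic arrays and on no thyroid array. Cpa1 encodes carboxypeptidase A1, which removes aromatic and branched residues from the C terminus of a peptide chain. Its probe (chromosome 6, 30595250 to 30595309, plus strand, mm8) read -5.38, -6.03 and -5.01 on the thymic arrays, against -8.30, -7.51 and -7.67 on the thyroid arrays. The groups were separate, and thymic replicate 2 was the dimmest of the thymic arrays. The measured difference was 2.36 (SE 0.313, adjusted p = 5.13e-04), and the gene was at least 1.51-fold higher. With thyroid values raised to the lowest signal above background, the difference was 0.60 and was not called (adjusted p = 0.182) (the smallest lower bound among the members).

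Cpb1 encodes carboxypeptidase B1, which removes basic residues such as those that trypsin leaves at the C terminus. Its probe (chromosome 3, 20441618 to 20441677, minus strand, mm8) read -3.43, -3.97 and -3.64 on the thymic arrays, against -7.52, -7.47 and -8.59 on the thyroid arrays. All thymic arrays were far above the thyroid arrays. The difference was 4.18 (SE 0.324, adjusted p = 3.61e-05), and the gene was at least 5.23-fold higher.

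The pancreatic lipase genes Pnlip and Pnliprp1 are close to each other on chromosome 19 and showed the largest differences of the members. Pnlip encodes the triglyceride lipase that digests most dietary fat. It was measured by 2 probes on the plus strand, one designed on the RefSeq transcript and the other on a cDNA clone, which gave different results. The transcript probe read -3.28, -3.36 and -3.05 on the thymic arrays, against -8.38, -7.51 and -8.64 on the thyroid arrays. It was above background on all thymic arrays and on no thyroid array. The difference was 4.95 (SE 0.292, adjusted p = 1.02e-05), and the gene was higher by at least 7.16-fold in the thymic group. The clone probe was above background on none of the 6 arrays, with values of -6.20, -6.09 and -6.47 on the thymic arrays, against -7.60, -7.29 and -8.09 on the thyroid arrays. It therefore gives no fold and was not tested.

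Pnliprp1 encodes a relative of pancreatic lipase with little lipase activity of its own. Its 60-base probe covers 594 bases of the genome (58793788 to 58794381, plus strand, mm8), so its letters are split between separate stretches of genomic sequence.
Pnliprp1 probe: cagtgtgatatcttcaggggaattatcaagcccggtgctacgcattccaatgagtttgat
The probe read -2.33, -2.75 and -2.31 on the thymic arrays, against -6.36, -7.10 and -7.11 on the thyroid arrays, none of which was above background. The groups were separate by several log2 units. The difference was 4.39 (SE 0.242, adjusted p = 7.56e-06), and the gene was at least 12.1-fold higher. That is the largest of the members' lower bounds, although Pnlip has the larger measured difference.

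All 7 measured members were called higher in the thymic samples, where 39.2% of all genes tested were called higher and 30.6% lower, and the groups did not overlap for any of the 7, as for 42.1% of all genes with the thymic values on top. Nothing is read from these counts, because Cela1, Cpa1, Cpb1, Pnlip and Pnliprp1 entered the test only through the thymic arrays. With only genes above background on all 6 arrays, Cel and Ctrb1 remained and both were called, where 29.4% of 17071 genes were called higher in the thymic samples. With no filter on brightness all 7 were called, where 31.3% of 27571 genes were. The background itself depends on the scaling: 56.2% of all calls were higher in the thymic samples, against 48.0% with quantile normalization and 35.8% with median centring or the deposited value table. No member changed direction under any of these. The median difference was 2.36 over the members and 0.10 over all genes tested, and with dim values raised to the background limit the members' median was 1.62.

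Between thymic replicates, the members' ranges ran up to 1.02 (log2) for Cpa1, with 0.54 for Cpb1 and 0.44 for Pnliprp1. Thymic replicate 2 was the lowest thymic array for 6 of 7 members, where it was lowest for 37.9% of all genes, and thymic replicate 3 was the highest for 5 of 7, where it was highest for 37.7%. Thymic replicate 3, the pool of 2 thymi, was also the highest array of the thymocyte list, and whether this bears on the members was not tested. Among thyroid arrays, replicate 2 was the highest for 5 of 7 members. Nothing is read from this count, because the share over all genes was not computed and 4 of the 7 were above background on no thyroid array. Thyroid replicate 2 had the lowest 75th percentile, by which its signals were divided (475, against 805 and 711 for thyroid replicates 1 and 3). It also had the highest limit of detection, at a log2 level of -5.41, against limits down to -6.57 on the other arrays.

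The acinar genes beyond the members showed where the enzymes stand among their usual companions. Of 26 genes described, 22 had a probe and 19 were tested, of which 18 were called higher and 0 lower in the thymic samples by limma (39.2% and 30.6% of all genes) and 1, Ctrl, was not called. With median centring, the deposited value table or quantile normalization 18 were called higher and 1, Ctrl, lower, and with normexp correction 16 were called higher. With dim values raised to the background limit, 17 were called higher. The call for Erp27 was lost with that floor (0.75, adjusted p = 0.0565) and with normexp correction (0.25, adjusted p = 0.318). The median difference was 4.73. As with the members, many entered the test only through the thymic arrays: 8 of the 19 were above background on all thyroid arrays and 10 on none. With no filter, 18 of 22 were called higher and 1 lower, where 8641 of 27571 genes were called higher and 6377 lower. Pdia2, which did not pass the filter, read -6.26, -6.48 and -7.21 on the thymic arrays, against -5.35, -5.99 and -4.52 on the thyroid arrays. It was above background on 1 thymic and 2 thyroid arrays. Clps, the colipase that anchors pancreatic lipase to fat droplets, read 0.67, 0.74 and 1.03 on the thymic arrays, against -5.63, -4.80 and -5.38 on the thyroid arrays. It was above background on all 6 and 68.0-fold higher (adjusted p = 1.72e-06).

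Among proteases, the elastase Cela3b was at least 67.7-fold higher (adjusted p = 4.58e-06), Cela2a at least 3.15-fold (adjusted p = 3.60e-05) and chymotrypsin C (Ctrc), which controls trypsin activation and breakdown, at least 24.6-fold (adjusted p = 4.31e-05). Ctrl, a chymotrypsin-like protease, read -2.62, -2.61 and -2.73 on the thymic arrays, against -2.38, -2.46 and -2.87 on the thyroid arrays. Those groups overlapped, and the difference of -0.08 was not called (adjusted p = 0.641). It was called at -0.61 with median centring (adjusted p = 0.0113) and the deposited table and at -0.58 with quantile normalization (adjusted p = 0.0113).

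Among fat- and nucleic acid-cutting enzymes, phospholipase Pla2g1b was at least 37.9-fold higher (adjusted p = 5.23e-06), the ribonuclease Rnase1 46.5-fold (adjusted p = 3.14e-06) and Pnliprp2 at least 2.63-fold (adjusted p = 5.52e-04), a call lost with normexp correction (0.33, adjusted p = 0.154). Of the amylases, which cut starch, Amy1, the salivary form, was 2.53-fold higher (adjusted p = 8.00e-05), while both probes of the pancreatic Amy2a5 were above background on no array. A probe named Amy2 on the array, which lists a transcript of Amy2a5 among others and was singled out after its values were seen, was above background on the thymic arrays alone and at least 1.97-fold higher (adjusted p = 2.82e-04). The zymogen granule proteins Zg16 (at least 106-fold, adjusted p = 2.22e-06), Sycn (13.4-fold, adjusted p = 5.54e-07) and Cuzd1 (at least 5.56-fold, adjusted p = 2.60e-05) were higher as well. Gp2, the main membrane glycoprotein of these granules, had the largest difference of the list: it read 3.88, 3.78 and 3.68 on the thymic arrays, against -7.14, -3.78 and -8.65 on the thyroid arrays. Only 1 thyroid array was above background, replicate 2 stood apart there, and the difference was 10.31 (adjusted p = 1.96e-04), or 9.30 with dim values raised to the background limit.

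**Figure D3:**
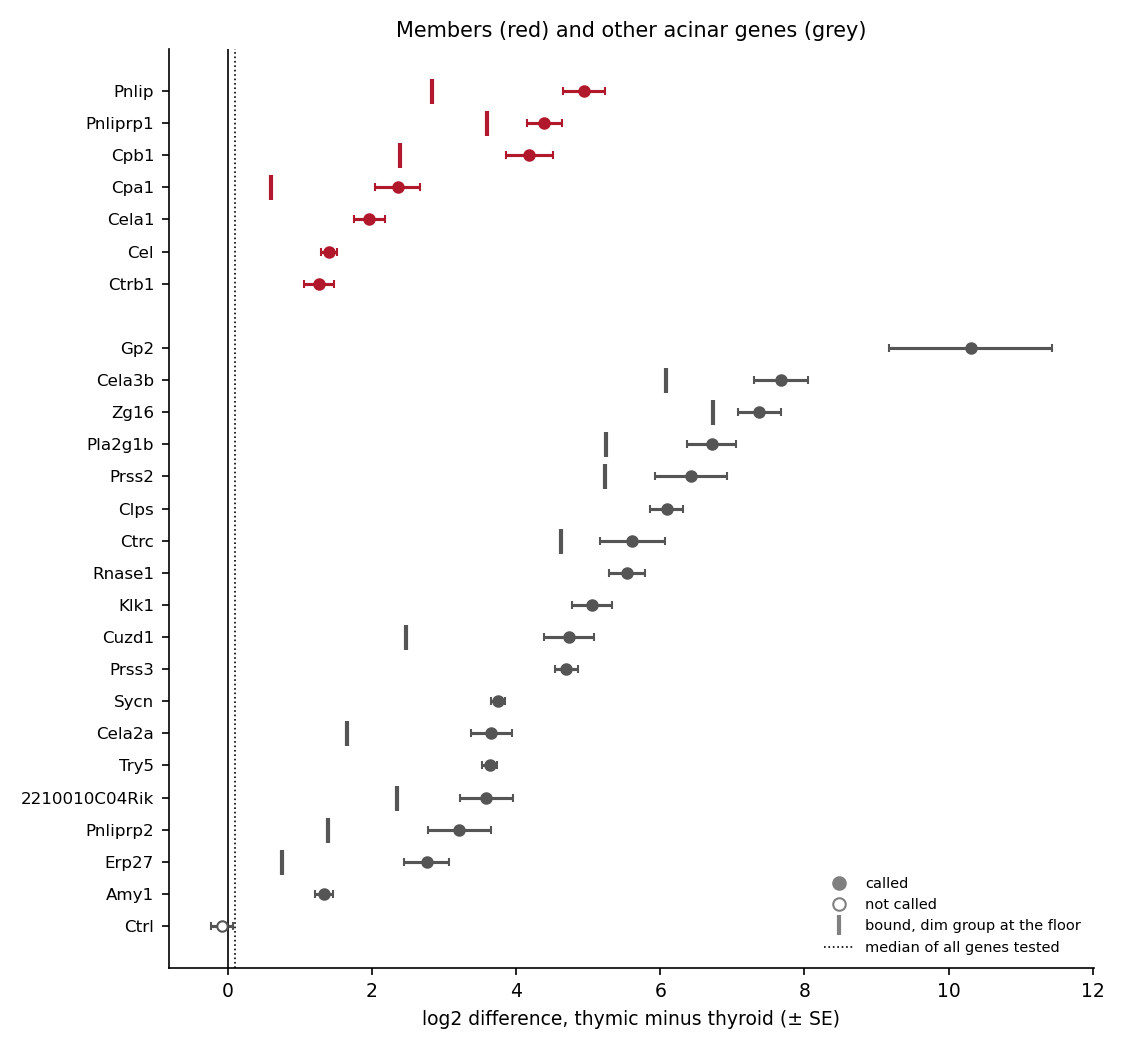
Log2 difference, thymic minus thyroid, with its SE (horizontal axis) for the 7 members in red and the 19 tested acinar genes in grey, each block sorted by size. Filled points were called, the vertical ticks are the lower bounds, the solid line is 0 and the dotted line the median of all genes tested (0.10). Ctrl is the gene that was not called.

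The regulators that drive these genes in the pancreas did not share a direction. Ptf1a, the helix-loop-helix factor that defines acinar cells, read -2.02, -2.31 and -2.44 on the thymic arrays, against -8.05, -7.17 and -8.30 on the thyroid arrays, and was at least 14.0-fold higher (adjusted p = 6.68e-06). Rbpjl, its partner in the acinar PTF1 complex, was 5.54-fold higher and above background on all 6 arrays (adjusted p = 3.48e-05). Gata4 was 2.44-fold higher (adjusted p = 1.77e-04), a call lost with normexp correction and with quantile normalization. Nr5a2, a nuclear receptor of acinar cells, was lower in the thymic samples, at -2.94, -3.10 and -2.66, against 1.35, 1.13 and 0.52 on the thyroid arrays (log2 difference -3.90, adjusted p = 1.19e-05). Bhlha15 (Mist1), a regulator of the secretory apparatus, was also lower (log2 difference -3.82, adjusted p = 1.60e-06) by the probe that represents it, while its other probe differed by 0.19.

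The PTF1 complex is known to bind a pair of short sites, an E-box and a TC-box, in the promoters of acinar enzymes. The letters CACCTG (E-box) and TTTCCC (TC-box) were therefore searched on both strands of the RefSeq promoters (GRCm38.p6) from 250 bases before to 50 after the gene start, which were found for 9 of 9 members. These motifs do not overlap each other in the windows printed. CACCTG occurred in 5 of 9 member promoters, against 20.21% of 32851 promoters, TTTCCC in 5 of 9, against 25.25%, and both in 3 of 9, Cela1, Prss1 and Cel, against 4.855%. The Cela1 and Cel promoters are shown as the measured members that hold both, with the motifs in capitals on the gene's strand, where CAGGTG and GGGAAA are the reverse complements. The Cela1 window is chr15:100687871-100688170 and the Cel window chr2:28563354-28563653, both on the minus strand.
Cela1 promoter: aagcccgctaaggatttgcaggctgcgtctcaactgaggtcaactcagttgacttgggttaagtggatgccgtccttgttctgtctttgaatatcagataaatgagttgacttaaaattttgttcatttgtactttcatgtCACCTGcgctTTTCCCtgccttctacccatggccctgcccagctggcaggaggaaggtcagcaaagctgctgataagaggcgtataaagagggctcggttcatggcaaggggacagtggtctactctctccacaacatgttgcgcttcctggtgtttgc
Cel promoter: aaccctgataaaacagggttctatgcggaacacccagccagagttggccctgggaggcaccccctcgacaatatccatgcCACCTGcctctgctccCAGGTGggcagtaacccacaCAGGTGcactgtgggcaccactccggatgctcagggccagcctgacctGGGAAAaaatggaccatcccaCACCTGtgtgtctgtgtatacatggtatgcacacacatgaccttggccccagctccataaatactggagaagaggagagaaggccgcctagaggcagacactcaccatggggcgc
Counted from the gene start, with -1 the base before it, the Cela1 matches began at -109 (CACCTG) and -99 (TTTCCC). The Cel promoter held CACCTG at -170, -154, -134 and -65 and TTTCCC at -86. Neither set of letters occurred in the windows of Pnlip and Pnliprp1, the members with the largest differences. A match describes letters and says nothing of binding.

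Genes of the intestinal brush border and of trypsinogen activation, and secretory genes of the stomach, were set beside the members for comparison. Enterokinase (Tmprss15), which activates trypsinogen in the gut, read -1.79, -1.97 and -1.69 on the thymic arrays, against -8.47, -7.57 and -8.74 on the thyroid arrays. By this probe it was at least 19.0-fold higher (adjusted p = 3.65e-06). Its other probe was above background on 2 thymic arrays and no thyroid array. That probe did not pass the filter and differed by 1.15 (log2). Of the 10 genes in the brush border and activating list, 7 were called higher and 1 lower (39.2% and 30.6% of all genes). The median difference of the 10 was 5.40. The list includes Fabp2, a fatty acid binding protein rather than an enzyme, which was among the 7. Examples of the 7 are maltase-glucoamylase (Mgam, at least 166-fold, adjusted p = 1.40e-06), sucrase-isomaltase (Sis, at least 71.2-fold, adjusted p = 7.76e-07) and the meprin subunit Mep1a (31.7-fold, adjusted p = 4.36e-07). Of the 10, 4 were above background on all thyroid arrays and 4 on none, and all but the first 4 entered the test only through the thymic arrays. With only genes above background on all 6 arrays, 4 were tested, of which 1 was called higher and 1 lower. In that setting 5023 of 17071 genes were called higher and 6421 lower. The dipeptidyl peptidase Dpp4 was lower in the thymic samples (log2 difference -1.90, adjusted p = 9.66e-05). Anpep (0.98, adjusted p = 0.0951) and Alpi (0.23, adjusted p = 0.234) were not called. The probes of Alpi, a brush border phosphatase, disagreed: the other gave a thymic signal higher by at least 11.0-fold.

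All 5 gastric genes were called higher (39.2% of all genes), with a median difference of 3.73, and 2 of them, Pgc and Cblif, were above background on no thyroid array. They include the pepsinogens Pga5 (13.3-fold, adjusted p = 2.71e-05) and Pgc (at least 25.9-fold, adjusted p = 4.93e-06) and gastric lipase (Lipf, 8.47-fold, adjusted p = 4.41e-04). Pancreatic duct genes, which serve bicarbonate and fluid secretion, were mixed. Of 4 tested, the chloride channel Cftr (3.93-fold, adjusted p = 4.73e-04) and Sox9 (1.71-fold, adjusted p = 0.0134) were called higher, and Car2 (log2 difference -1.74, adjusted p = 1.62e-04) and Slc4a4 (log2 difference -1.98, adjusted p = 0.00177) lower. The call for Sox9 was lost with median centring, with the deposited value table and with the median over its probes.

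**Figure D4:**
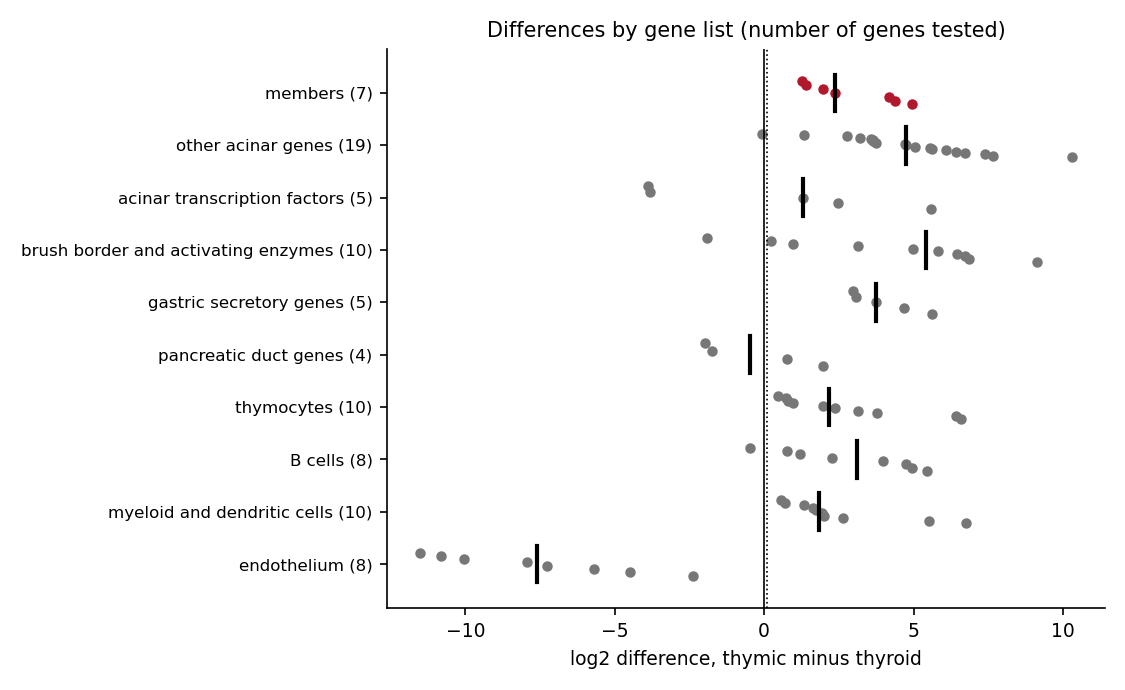
Log2 difference, thymic minus thyroid (horizontal axis), of every tested gene in 10 lists, with the list's median as a black bar, the number of genes tested in brackets, the solid line at 0 and the dotted line at the median of all genes tested. The members (red) lie between 1.26 and 4.95, the acinar transcription factors fall on both sides of 0, and the endothelial markers lie to the left.

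Profiles over the 6 arrays, each centred on its own mean, were compared by distance, with the members and predicted, Riken and clone-named symbols left out. The genes most like the members' mean profile were then Best2 (root mean square distance 0.0752, log2), Gast (0.0817), Slc25a42 (0.0836), Klk4 (0.0864) and Dennd1c (0.0923). The members themselves lay further from this mean, from 0.434 for Cpa1 to 1.04 for Pnlip. With 2 groups on 6 arrays this likeness mostly reflects the size of the group difference: 5621 genes, or 26.3% of those tested, correlated with the members' mean profile at 0.95 or more.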

How the data were processed

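Per the labels' protocols, Trizol was used for RNA extraction and Cy3 as the label. Arrays were read with Agilent Feature Extraction 10.5.1.1, which gives probe positions on mm8, per the file headers. Each spot's deposited processed signal is a background-subtracted intensity, per the file headers. The authors also deposited a value table, a linear ratio that equals the processed signal divided by the array's median.

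Control and outlier spots were left out, spots of a probe averaged, and log2 values set relative to the 75th percentile of the array. Probes entered the test if marked well above background on the 3 arrays of either group, and where a gene had several, the probe with the highest mean level stood for it. The comparison used limma 3.58.1 under R 4.3.3 (lmFit, eBayes, two-sided, no covariate, Benjamini-Hochberg over all genes). The fit was tested on simulated data of 21381 genes, where it recovered 88% of genes raised by 2 (log2) and 0% of those raised by 0.5, with 5 unchanged genes called. Only 50 genes were changed at each effect size there, whereas 14923 genes were called in the data. The adjustment was therefore stricter in the simulation, and its shares do not give the recovery in the data. Of 41174 probes, 24375 were named by accession, 6301 by symbol and 2426 by an older symbol in a RefSeq table of GRCm38.p6, and 8072 kept the file's name. Probes could not be placed in exons or introns here.

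Thymic arrays 1 to 3 and thyroid array 1 shared slide 1, and thyroid arrays 2 and 3 shared slide 2. The submitters call the 3 samples of a group independent, and their number limits the precision. The alternatives were quantile normalization, centring on the median, normexp correction (offset 50), the deposited table, other filters, the median over probes, the slide or replicate number as a block, slide 1 alone, a floor for dim values and leaving out each replicate. The genes named are the members, the acinar, transcription factor, brush border, duct, gastric and marker lists, and the 5 closest profiles. From these lists 2 genes, and 1 probe sequence, are not reported here. Members and lists were chosen with earlier results of these data known.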

Additional observations from a re-analysis of the deposited data

How the results depend on the processing

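Of the counts, that of genes called stayed within 1.5 times under all alternatives. With only genes above background on all 6 arrays, 2 members and 7 other acinar genes were called higher, because fewer genes were tested. Leaving out 1 replicate gave 13318 to 14796 genes called, 7 members each time and 18 to 19 other acinar genes. Deviations from the group means of same-numbered arrays correlated at 0.0066, -0.0667 and -0.0544, and those of differently numbered arrays at -0.0629 to 0.116. No shared deviation by replicate number was seen, but whether samples were collected in pairs cannot be judged from this. A replicate block called 14046 genes, 7 members and 18 other acinar genes. With the slide as a block, slide 2 adds nothing to the group difference, because it holds only thyroid arrays. The member differences were therefore the same as with slide 1 alone. Slide 1 alone, which holds 1 thyroid array, gave member differences from 1.46 for Cela1 to 5.16 for Pnlip. Without thyroid replicate 2, 18 of 20 acinar genes were called higher and 1 lower. With no filter it was 18 of 22 higher and 1 lower. Ctrl was not called in either setting.

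Normexp correction, whose offset raises dim values, called 5 members, against 7 in the report's setting. It gave differences of 0.35 for Cela1 (adjusted p = 0.0762) and 0.21 for Cpa1 (adjusted p = 0.292), which were no longer called, and 0.79 for Cpb1, 1.09 for Pnlip and 1.43 for Pnliprp1, which were. Cpa1 was also lost with dim values raised to the background limit (0.60). Over the alternatives, Cel ranged between 0.88 and 1.53 and Ctrb1 between 0.74 and 1.63, called under each. No member reversed. Ctrl, a chymotrypsin-like protease that was not called, was between -0.23 and 0.0088 with 1 replicate left out, above 0 without thyroid replicate 1, and was called lower with median centring, the deposited table and quantile normalization. Alpi, a brush border phosphatase, was 0.23 and not called in the report's setting. It was -0.050 with normexp and -0.29 with median centring and the deposited table, not called, but -0.69 with quantile normalization (adjusted p = 0.00499), 2.53 as the median of both probes (adjusted p = 2.66e-04) and 0.49 on slide 1 alone (adjusted p = 0.0358), which were called. Normexp correction called 16 other acinar genes, and raising dim values to the background limit called 17, with Erp27 lost in both. The cause of the other changes was not tested. For Cpa1, Cpb1, Pnlip and Pnliprp1, and in part for Cela1, the thyroid signal at background limits what can be said to a lower bound.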
